A study of Rattus norvegicus with 6 samples.

Results

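Genes of the cell division cycle were followed in rat bone marrow mesenchymal stem cells after silencing of S100A16. The set holds 7 of the 30560 genes in the deposited table, taken by their rat Ensembl identifiers. The list was chosen with earlier results of these data known. Its members are Mki67 (ENSRNOG00000028137), Top2a (ENSRNOG00000053047), Cdk1 (ENSRNOG00000000632), Ccnb1 (ENSRNOG00000058539), Ccna2 (ENSRNOG00000015423), Pcna (ENSRNOG00000021264) and Ccnd1 (ENSRNOG00000020918). The cells, which are adherent marrow cells able to form bone, were transfected during osteogenic differentiation with an siRNA against S100A16 (siS100A16, 3 samples) or with a scrambled siRNA (siNC, 3 samples). All 6 samples therefore share the osteogenic treatment and the transfection, and differ in the siRNA. Per the labels' protocols the marrow came from the neck of the rat femur and cells were used at passages 3 to 5. The strain, the age of the rats, the day of differentiation and the number of animals behind the samples are not in the labels, and nothing says that the replicates came from separate cultures, so a p-value here weighs a spread that may be only technical.

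Cells divide in a fixed order of phases, each driven by a cyclin bound to a kinase. Ccnd1 encodes cyclin D1, which acts in G1 and responds to growth signals. Pcna encodes the sliding clamp of DNA polymerases in S phase. Ccna2 encodes cyclin A2, which acts in S and G2, while Cdk1 and its partner cyclin B1, from Ccnb1, drive entry into mitosis. Top2a encodes the topoisomerase that untangles replicated chromosomes, and Mki67 the Ki-67 protein that coats mitotic chromosomes and is used as a marker of proliferating cells. Differentiation of marrow stromal cells into osteoblasts is generally accompanied by withdrawal from the cell cycle. In bulk RNA a smaller share of dividing cells and less RNA per dividing cell cannot be told apart.

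The table lists identifiers without gene names, and the RefSeq gene table used here pairs 0 of its 47357 rat genes with an Ensembl identifier. Symbols are therefore those assigned to the 7 identifiers when the list was made, and they were checked against gene length only. The lengths worked out from the FPKM values (reads per kilobase of gene length and per 1000000 reads counted) were 9886 nt for Mki67, 5441 nt for Top2a, 2275 nt for Ccna2, 2068 nt for Ccnb1, 1917 nt for Ccnd1, 1473 nt for Pcna and 1356 nt for Cdk1. Each lay below the genomic span of the RefSeq gene of the same symbol (GRCr8), which ranged from 3873 nt for Pcna to 31140 nt for Top2a. By this rule 7 of 7 were kept, but a genomic span bounds the length so loosely that the check does not establish identity. The Mki67 and Top2a proteins are by far the largest of the set, and their identifiers were the longest. A length like that of Mki67 or longer was found for 0.957% of tested genes and one like that of Top2a or longer for 7.64%. In contrast, 76.1% of tested genes were at least as long as Cdk1, 72.8% as Pcna and 59.1% as Ccnd1. Length therefore identifies the short members only weakly. S100A16 itself, other cell cycle genes and markers of stromal or blood cells could not be looked up by symbol. The silencing and the labelled cell type were therefore not checked.

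Libraries held 7135826 to 8059327 reads counted to genes in siNC and 5387539 to 6937001 in siS100A16. Of 1264 genes with a mean of 10 to 20 reads over all 6 libraries, 18.6%, 4.03% and 17.6% were at 0 in siS100A16 replicates 1 to 3 and 0.396%, 0.316% and 0.712% in siNC replicates 1 to 3. With 1380 genes chosen instead by a mean of 10 to 20 reads in siS100A16, these shares were 13.2%, 8.04% and 14.3% against 4.78%, 5.29% and 5.43%. The class over all 6 libraries holds Cdk1 and Ccnb1. The class chosen in siS100A16 holds Cdk1 but not Ccnb1, which falls among 1999 genes with a mean of 20 to 50 reads. In these, 2.85%, 0.55% and 4% were at 0 in siS100A16 replicates 1 to 3, and at most 0.25% in any siNC library. The part of a low level in the values of Cdk1 and Ccnb1 was not tested.

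The 7 genes spanned a wide range of level. On the FPKM scale, which divides by length and so allows genes to be compared, Ccnd1 stood highest in both groups, with 309 ± 30.7 in siNC against 258 ± 42.5 in siS100A16 (mean ± SD, n = 3 each). Pcna came second, at 13.8 ± 1.64 and 25.4 ± 5.86. The values of Ccnd1 and Pcna did not overlap with each other or with those of any other member in either group. The other 5 genes lay at about 1 FPKM. In siNC the order was Ccna2 (1.53 ± 0.382), Cdk1 (1.47 ± 0.625), Top2a (1.34 ± 0.584), Ccnb1 (1.03 ± 0.165) and Mki67 (0.869 ± 0.149), and each neighbour in this order overlapped with the next. In siS100A16 the order was Ccna2 (2.19 ± 1.28), Ccnb1 (1.75 ± 2.13), Cdk1 (1.72 ± 0.915), Top2a (0.991 ± 0.591) and Mki67 (0.411 ± 0.34), again with overlap between all neighbours. A wider spread in siS100A16 was not particular to these genes. Among 1313 genes averaging 10 to 20 reads in siNC, the median SD of log2(FPKM + 1) was 0.47 in siS100A16 against 0.19 in siNC. Among 2402 genes averaging 100 to 200 reads it was 0.37 against 0.16. Over all samples Ccnd1 ranked 264th of the 30560 genes by mean FPKM, Pcna 3533rd and Mki67 13461st.

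**Figure D1:**
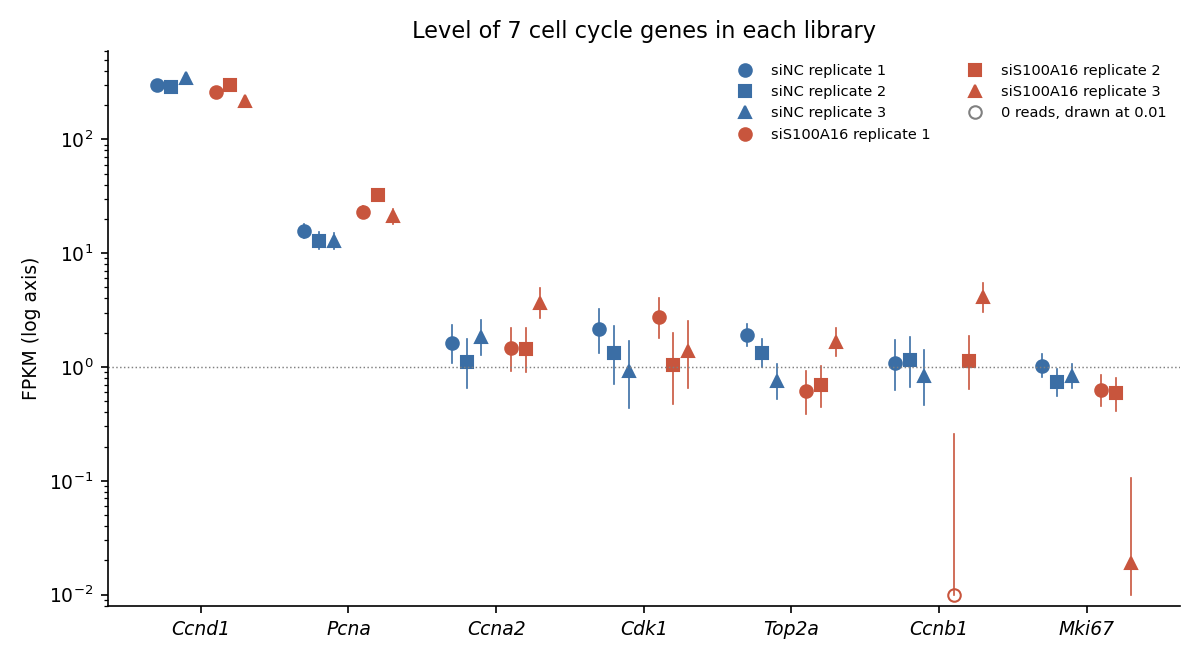
FPKM of each gene (log axis) in the 6 libraries, with 95% Poisson intervals of the reads as vertical lines and the dotted line at 1 FPKM. Ccnd1 lies between 216 and 344 and Pcna between 12.8 and 32.1, while the other 5 genes lie at 4.13 or lower, with Ccnb1 at 0 reads in siS100A16 replicate 1 and Mki67 at 1 read in siS100A16 replicate 3.

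Differential expression was tested with limma on log2(FPKM + 1), over the 12336 genes that averaged 1 FPKM or more, and a gene is called where the p adjusted by Benjamini-Hochberg is under 0.05. Of the 7 members, 6 passed this filter and Mki67, with a mean of 0.64, did not. In this test 1 of the 6 was called, Pcna, which was higher in siS100A16, and 0 were called lower. Over all tested genes 20.7% were called, 16.4% higher and 4.27% lower, so 1 of 6 is near the background. At an unadjusted p under 0.05 the count was also 1 of 6, where 35.3% of all tested genes passed. By range, 1 of the 6 tested members did not overlap between groups, Pcna (higher), and 5 did. Over all tested genes 41.6% did not overlap, 29.3% higher and 12.2% lower. Mki67, which is outside this background, did not overlap either (lower). The median log2 fold change was 0.13 over the 6 members and 0.17 over all tested genes.

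Pcna, the replication clamp, rose after S100A16 siRNA. Its level was 15.7, 12.8 and 12.9 FPKM in siNC replicates 1 to 3 and 23.0, 32.1 and 21.2 FPKM in siS100A16 replicates 1 to 3. All 3 siS100A16 libraries lay above all 3 siNC libraries. The ratio of mean FPKM was 1.84, and the log2 difference of 0.82 had an SE of 0.20 (limma adjusted p = 0.0268, higher in 3 of 3 samples). The values rest on 135 to 175 reads per siNC library and 168 to 302 per siS100A16 library, and the 95% counting interval of the highest siNC library reached 18.2 FPKM, just past the 18.1 FPKM at which that of the lowest siS100A16 library began.

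The call for Pcna depended on scaling and was lost when any 1 siNC library was left out, while its direction was the same in all 18 alternatives run. Those with another filter, another variance prior or the replicate block leave the estimate at 0.82, so their direction was fixed in advance. With median-of-ratios scaling, which shifted the median log2 fold change of all tested genes from 0.17 to -0.02, the Pcna log2 fold change was 0.60 (limma adjusted p = 0.0837), and the scaled values still did not overlap between groups. How many of all tested genes did not overlap after this scaling was not worked out. Scaling each library to the same summed FPKM kept the call, at 0.78 (limma adjusted p = 0.0424). So did limma voom on the reads, at 0.87 (limma adjusted p = 0.0331). Quantile normalization gave 0.54 (limma adjusted p = 0.115), a correction for gene length in each library (lowess) 0.43 (limma adjusted p = 0.217), and leaving out the 100 most abundant genes 0.46 (limma adjusted p = 0.189). Without a level filter it was 0.82 with limma adjusted p = 0.0511. Without siNC replicate 1, 2 or 3 the value was 0.91, 0.77 or 0.77 with limma adjusted p = 0.0612, 0.123 and 0.0906. In these fits the genes called over all tested genes also fell, from 2556 to 1149, 552 and 1349. Without siS100A16 replicate 1, 2 or 3 Pcna stayed called, at 0.88, 0.64 and 0.93 (limma adjusted p = 0.0492, 0.0409 and 0.0385). Relative to the median of all tested genes the rise was 0.64 on the log2 scale. Pcna, with a mean of 19.6 FPKM, lies at the border of 2 classes of level. Of 4282 tested genes from 5 to 20 FPKM 13.5% were called higher and 4.3% lower, around a class median of 0.16. Of 2661 from 20 to 100 FPKM these shares were 34.9% and 3.95%, around a class median of 0.43. Narrower classes of 617 genes on either side of Pcna, at 4.13 and 4.44 on the log2(mean FPKM + 1) scale, had medians of 0.27 and 0.31. Against class medians above 0.17 the rise of Pcna is smaller than 0.64.

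RefSeq lists 3 pseudogenes named for Pcna, 1 for Cdk1 and 1 for Mki67. How reads matching several places, or the strand, were counted is not given in the sources used here, so reads of these 3 genes may include some from such copies.

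The promoters of 5 of the 7 members were available from RefSeq (GRCr8). Of these, 3 are shown: Pcna as the member that was called, and Top2a and Ccnb1 as members with more matches to the motifs below. Their difference from Pcna in response was not established, since the Pcna to Top2a ratio overlapped between groups and the interval of Ccnb1 holds the value of Pcna. Each is the 250 bases before the annotated start, 5′ to 3′ on the strand of the gene, with capitals marking CCAAT boxes (CCAAT on either strand) and CHR elements (TTTGAA or TTCGAA on either strand), which are known as joint motifs of genes transcribed in G2 and mitosis. Pcna lies at chr3:139955821-139956070 (minus strand), Top2a at chr10:84473094-84473343 (minus strand) and Ccnb1 at chr2:33655226-33655475 (minus strand).
Pcna: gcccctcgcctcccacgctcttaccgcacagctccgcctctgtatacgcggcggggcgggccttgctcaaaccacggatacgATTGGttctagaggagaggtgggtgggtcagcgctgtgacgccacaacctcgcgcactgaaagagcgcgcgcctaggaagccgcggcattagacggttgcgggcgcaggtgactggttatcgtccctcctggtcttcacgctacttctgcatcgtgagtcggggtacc
Top2a: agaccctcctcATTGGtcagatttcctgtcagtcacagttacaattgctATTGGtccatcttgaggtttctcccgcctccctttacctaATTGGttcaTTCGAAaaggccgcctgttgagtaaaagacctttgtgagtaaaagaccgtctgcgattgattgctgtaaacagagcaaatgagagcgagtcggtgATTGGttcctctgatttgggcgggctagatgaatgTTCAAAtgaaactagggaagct
Ccnb1: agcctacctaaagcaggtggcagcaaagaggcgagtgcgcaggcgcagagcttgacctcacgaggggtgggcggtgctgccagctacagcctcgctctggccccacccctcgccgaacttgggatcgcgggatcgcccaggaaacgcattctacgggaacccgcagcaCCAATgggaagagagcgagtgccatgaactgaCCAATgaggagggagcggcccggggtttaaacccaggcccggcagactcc
The Top2a window held 4 CCAAT boxes and 2 CHR elements, that of Ccnb1 2 and 0, and that of Pcna 1 and 0. Other forms of the CHR element were not searched for, so a count of 0 does not show that a promoter lacks one. Of the windows not shown, Mki67 held 4 CCAAT boxes and 2 CHR elements and Cdk1 held 3 and 2. The 2 motifs can share a base where TTTGAA runs into ATTGG, as in the Mki67 window. Among all 33469 RefSeq windows of this length, 34.0% held at least 1 CCAAT box, 9.42% at least 2 and 0.565% at least 4, while 17.4% held a CHR element. These matches describe the letters of the windows only, and no factor binding was measured.

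Ccnd1, the G1 cyclin, was not called. It stood at 298, 286 and 344 FPKM in siNC and at 258, 301 and 216 FPKM in siS100A16. The siS100A16 replicate 2 library overlapped with the siNC range and the other two lay below it. The log2 fold change of -0.27 had an SE of 0.16 (95% interval -0.62 to 0.09, limma adjusted p = 0.264). With 2232 to 5312 reads per library, counting error was small beside the spread between samples. Among the 768 tested genes with a mean FPKM of 100 to 1000, 53.1% were called higher and 6.64% lower, and their median log2 fold change was 0.59.

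Scaling changed the call for Ccnd1 in the opposite sense to that for Pcna. Its log2 fold change was below 0 in all 18 alternatives, though another filter, another variance prior or the replicate block leaves it at -0.27 by design. With quantile normalization it was -0.70 (limma adjusted p = 0.0298), without the 100 most abundant genes -0.65 (limma adjusted p = 0.0308) and with the length trend removed -0.55 (limma adjusted p = 0.0427), so that Ccnd1 was called lower in these 3. In the same order 858 of 12336, 1030 of 12236 and 652 of 12336 tested genes were called lower, against 527 with the deposited values. With median of ratios the Ccnd1 log2 fold change was -0.50 (limma adjusted p = 0.0581), and the scaled values no longer overlapped between groups. The share of all tested genes without overlap was not worked out for this scaling. The ratio of Pcna to Ccnd1 within a library is not changed by any scaling that applies 1 factor to a whole library, as median of ratios does, though it is by quantile normalization and the length correction. Pcna FPKM amounted to 5.28%, 4.50% and 3.75% of Ccnd1 FPKM in siNC and to 8.92%, 10.7% and 9.80% in siS100A16, a mean of 4.51% ± 0.764 against 9.79% ± 0.872 (SD, n = 3 each). This ratio was chosen after its values were seen and was not tested.

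**Figure D2:**
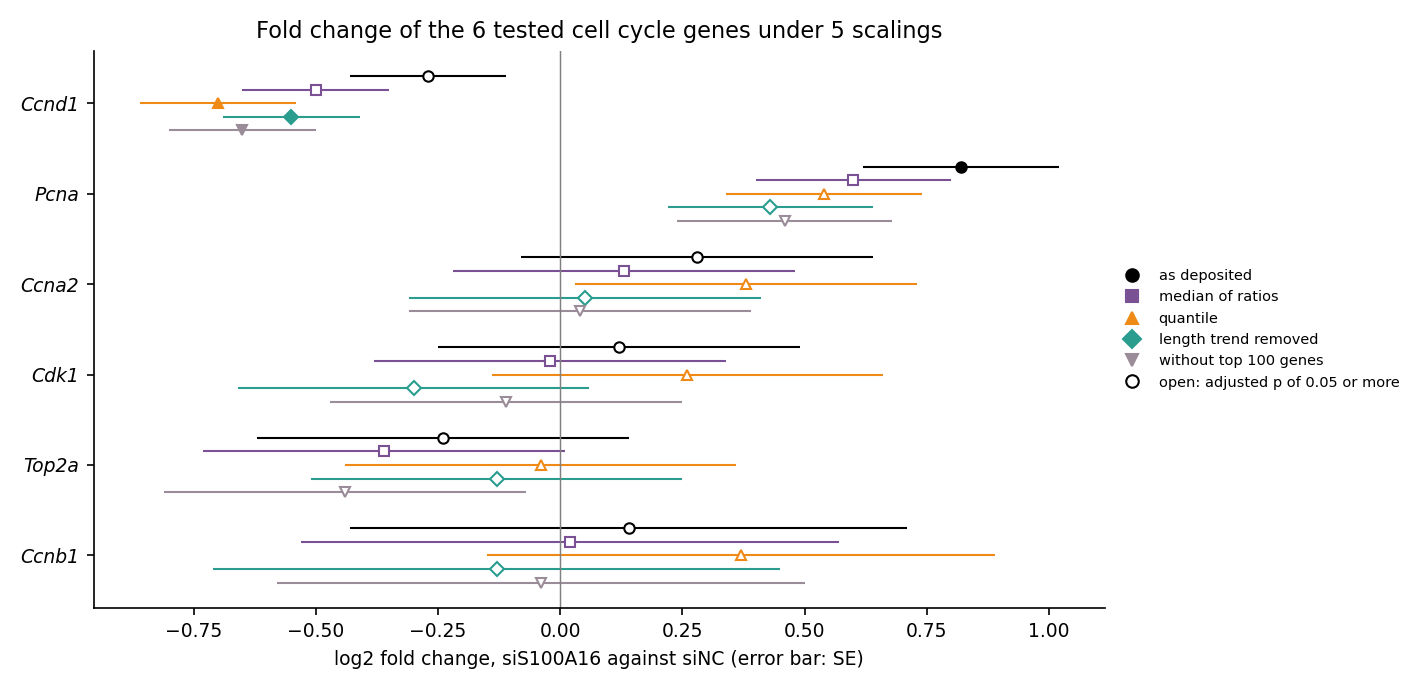
Log2 fold change of siS100A16 against siNC with its SE (horizontal axis) for the 6 tested members under the deposited values and 4 other scalings, filled where the limma adjusted p is under 0.05. Pcna stays above 0 but is called with the deposited values alone of these 5, Ccnd1 stays below 0 and is called in 3, and the error bars of Cdk1 and Ccnb1 cross 0 in all 5.

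None of the 4 tested genes near 1 FPKM, Ccna2, Ccnb1, Cdk1 and Top2a, was called. Ccna2, cyclin A2, stood at 1.63, 1.11 and 1.85 FPKM in siNC and at 1.46, 1.45 and 3.67 FPKM in siS100A16. Only siS100A16 replicate 3 lay outside the siNC range. The log2 fold change of 0.28 had an SE of 0.36 (95% interval -0.54 to 1.10, limma adjusted p = 0.629), and without siS100A16 replicate 3 it was -0.03.

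Ccnb1, cyclin B1, was even in siNC, at 1.09, 1.15 and 0.84 FPKM, and stood at 0, 1.14 and 4.13 FPKM in siS100A16 replicates 1 to 3. The siS100A16 libraries thus lay below, within and above the siNC range. In reads these values are 17, 17 and 14 against 0, 15 and 46. At the pooled siNC rate 14.6 reads would fall in siS100A16 replicate 1, where there were none, which allows up to 3 reads or 0.209 FPKM, and 11.4 in replicate 3, which held 4.05 times as many. Among the 1264 genes with a mean of 10 to 20 reads over all libraries, 18.6% were at 0 in siS100A16 replicate 1 and 9.18% reached at least 4 times the siNC rate in replicate 3. By the mean in siNC (10 to 20 reads, 1313 genes) these shares were 24% and 6.02%. By the mean in siS100A16 (20 to 50 reads, 1999 genes) they were 2.85% and 5.6%. The log2 fold change of 0.14 had an SE of 0.57 (95% interval -1.18 to 1.45, limma adjusted p = 0.892), and its sign turned without siS100A16 replicate 3 (-0.47) and with limma voom on the reads (-1.04).

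Cdk1, the kinase partner of cyclin B1, stood at 2.15, 1.34 and 0.915 FPKM in siNC and at 2.76, 1.04 and 1.37 FPKM in siS100A16. The groups overlapped, with siS100A16 replicate 1 as the highest library. The log2 fold change of 0.12 had an SE of 0.37 (95% interval -0.72 to 0.96, limma adjusted p = 0.845), and without siS100A16 replicate 1 it was -0.14. The values rest on 9 to 26 reads per library. The highest Cdk1 value and the absence of Ccnb1 reads fell in the same library. The log2 ratio of Ccnb1 to Cdk1, with 0.5 reads added to each, was -0.97, -0.23 and -0.14 in siNC and -6.34, 0.10 and 1.54 in siS100A16 (difference of means -1.12, exact two-sided permutation p = 1). The value of -6.34 is set by the 0.5 reads added to 0, and without siS100A16 replicate 1 the difference turned to 1.27.

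Top2a, the chromosome topoisomerase, stood at 1.92, 1.34 and 0.753 FPKM in siNC and at 0.609, 0.691 and 1.67 FPKM in siS100A16. Replicates 1 and 2 of siS100A16 lay below all siNC libraries and replicate 3 lay within their range. The log2 fold change of -0.24 had an SE of 0.38 (95% interval -1.11 to 0.63, limma adjusted p = 0.696). It stayed below 0 in the 17 alternatives run, between -0.51 and -0.04, and was called in 0 of them. Without a filter, with another variance prior and with the replicate block the estimate cannot move, and it was -0.24 there. The log2 ratio of Pcna to Top2a was 3.45 ± 0.55 in siNC against 4.79 ± 1.00 in siS100A16 (SD, n = 3 each). The groups overlapped, with exact two-sided permutation p = 0.2.

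Mki67, the proliferation antigen, had lower values in each siS100A16 library than in any siNC library but did not pass the level filter. Its values were 1.03, 0.737 and 0.841 FPKM in siNC and 0.627, 0.586 and 0.0188 FPKM in siS100A16. In reads these are 77, 52 and 67 against 43, 37 and 1. When all 22692 genes with a value above 0 were fitted, Mki67 differed by -0.43 on the log2 scale with an SE of 0.25 (limma adjusted p = 0.382, lower in 3 of 3 samples). Without siS100A16 replicate 3 it was -0.22 (limma adjusted p = 0.428), with a pseudocount of 0.1 it was -1.30 (limma adjusted p = 0.482) and with limma voom on the reads -1.85 (limma adjusted p = 0.193). These 3 alternatives were chosen after the data were seen. Replicates 1 and 2 of siS100A16 held 0.72 and 0.673 times the reads of the pooled siNC rate. Replicate 3 held 0.0216 times that number, 1 read where 46.4 would fall at the siNC rate. By its mean over all 6 libraries Mki67 falls among 1955 genes with 20 to 50 reads. Of these, 7.72% had at most 1 read in siS100A16 replicate 3, 7.26% in replicate 1 and 0.665% in replicate 2. In any siNC library the share was at most 0.102%. By its mean in siNC it falls among 1981 genes with 50 to 100 reads, where the siS100A16 shares were 1.67%, 2.47% and 0.101% in the same order. By its mean in siS100A16 (20 to 50 reads, 1999 genes) they were 5.45%, 4.1% and 0.9%.

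**Figure D3:**
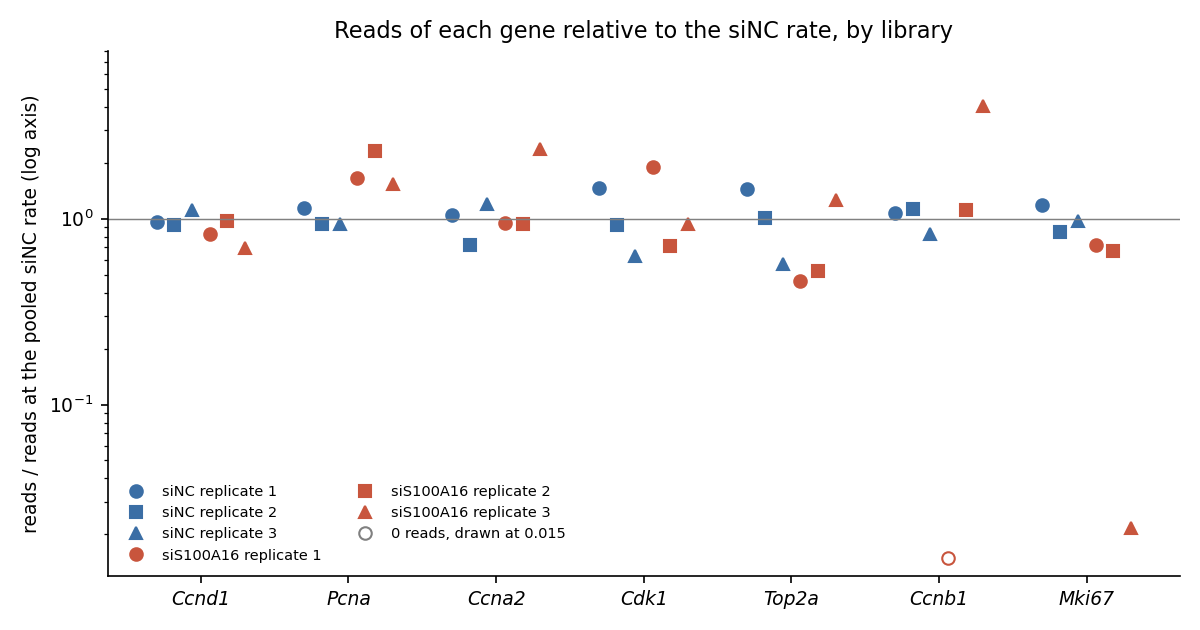
Reads of each gene divided by the reads that would fall in that library at the pooled siNC rate (log axis), so that 1 marks the siNC rate. The rate is pooled from the siNC libraries themselves, which draws them toward 1. The siNC libraries stay between 0.568 and 1.47, while siS100A16 replicate 3 ranges from 0.0216 for Mki67 to 4.05 for Ccnb1. In siS100A16 replicate 1 Ccnb1 had 0 reads.

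The members did not move together in siS100A16 replicate 3. This library had the highest value of Ccnb1 and of Ccna2 among all 6 libraries and the highest of Top2a within its group, yet 1 read of Mki67. The summed FPKM of Mki67, Top2a, Cdk1, Ccnb1 and Ccna2 was 7.81, 5.68 and 5.20 in siNC and 5.46, 4.90 and 10.9 in siS100A16, so that the highest sum lay in that library and the other two overlapped with siNC or lay just below it. Per 1000000 library reads the summed reads of these genes were 29.5, 21.3 and 19.6 against 16.6, 16.6 and 28.0. These sums ranked the libraries differently because Mki67 and Top2a are long and give many reads per FPKM. The log2 ratio of Ccnd1 to Mki67 was 8.17, 8.58 and 8.66 in siNC and 8.67, 8.99 and 12.91 in siS100A16 (difference of means 1.71, exact two-sided permutation p = 0.1, which is the lowest that 3 against 3 can give). The groups were separated by a narrow gap, and without siS100A16 replicate 3 the difference was 0.35. Adjusted over the 3 ratios tested, the p-values were 0.3 for Pcna to Top2a, 0.3 for Ccnd1 to Mki67 and 1 for Ccnb1 to Cdk1.

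**Figure D4:**
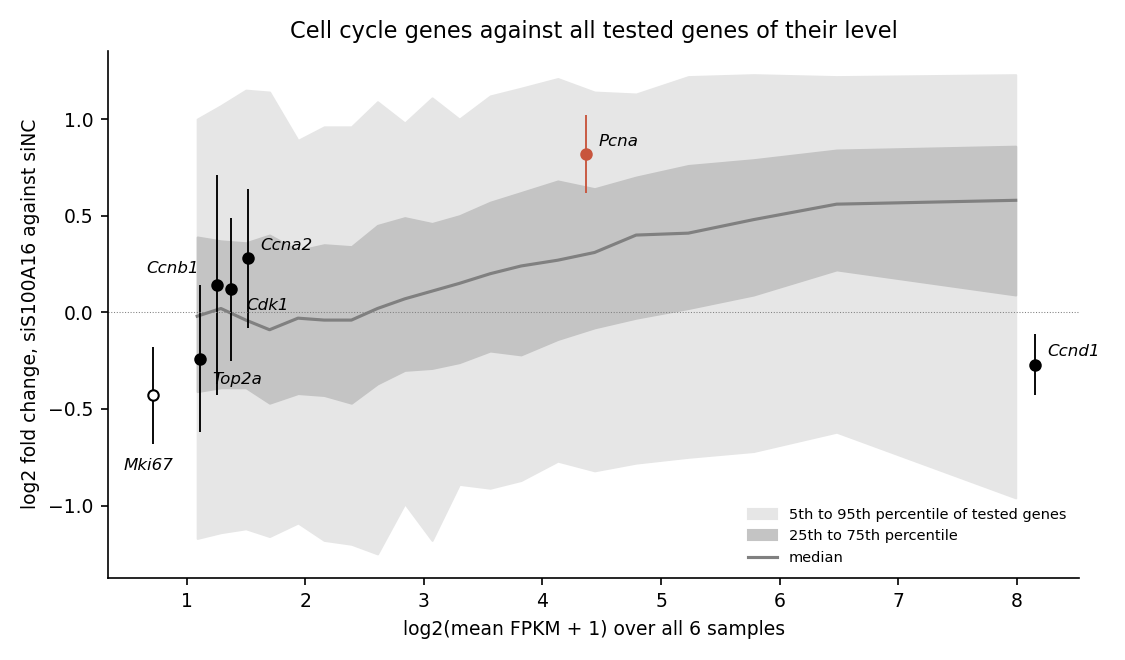
Log2 fold change of each member with its SE against log2(mean FPKM + 1), over bands that hold the middle 50% and 90% of tested genes of each level and a line at their median. Pcna (coloured, called) lies above the middle band at 0.82, Ccnd1 lies below it at -0.27, the 4 tested genes near 1 FPKM lie between -0.24 and 0.28, and Mki67 (open) is from the fit without a level filter.

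The 2 tested genes outside the list whose log2 levels followed the mean centred profile of the 6 tested members most closely over the 6 samples were ENSRNOG00000006810 and ENSRNOG00000023760. That profile was highest in siS100A16 replicate 3, at 0.35, and lay between -0.17 and 0.09 in the other 5 samples. ENSRNOG00000006810 stood at 1.36, 0.90 and 0.837 FPKM in siNC and at 0.972, 1.26 and 2.21 FPKM in siS100A16, and ENSRNOG00000023760 at 1.36, 1.05 and 0.988 against 0.97, 1.16 and 1.79. Both were picked for this likeness out of all tested genes (Pearson r = 0.993 and 0.992, Spearman rho = 0.94 for both, given as a description), and neither is paired with a name here.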

How the data were processed

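Total RNA of 6 samples, 3 siNC and 3 siS100A16, was sequenced. The authors deposited 1 table of FPKM values with 1 column per sample, with the names Con and Exp and a number. Con was matched to the control genotype of siNC, and Exp was inferred to be siS100A16 as the only other group, with the number taken from the sample titles. Every direction rests on this match, which no check of the silenced gene bears on here. The submitters' processing notes list the tools HISAT2 (2.1.0) and DESeq2 (1.14.1) with no role and a mouse genome build, although all 30560 identifiers have the rat prefix. The read counter is not given in the sources used here, nor are the annotation and filters.

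Reads, library totals and gene lengths were worked out from the deposited FPKM: for 22692 genes the samples stood in whole-number ratios (relative tolerance 3e-12), and lengths were whole within 0.002 nt for 98.4% of genes averaging 1 FPKM or more. They are the smallest whole values, since a factor shared by reads and length is lost. Poisson intervals (95%) and the limit of 3 reads for a count of 0 cover counting error only. limma 3.58.1 in R 4.3.3 was fitted on log2(FPKM + 1), a scale that understates changes of low genes, with no term but the group and a variance prior that follows the level, on genes averaging 1 FPKM or more, adjusting over all of them. Values were not rescaled, and the variance of each gene was pooled over both groups. The fit and the reads were tested on simulated data. Ratios between members used reads per length with 0.5 reads added and an exact two-sided permutation test (smallest p 0.1), for 3 pairs. Samples with the same replicate number did not deviate together (correlations -0.03, 0.05 and 0.04), so the numbers were not taken as pairs. Alternatives were other pseudocounts, filters, scalings, variance priors, sample weights, a replicate block, limma voom on the reads and each sample left out.

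The named genes are the 7 members, together with the 2 genes most like their mean profile. The members and lists were chosen with earlier results of these data known. Further cell cycle genes, S100A16 and cell type markers had been listed by symbol and were not analysed here, since identifiers could not be paired with symbols.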

Additional observations from a re-analysis of the deposited data

How the results depend on the processing

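Of 120 alternative values for the members, 98 kept their direction and side of the threshold, 8 lost the call (all Pcna), 3 gained one (all Ccnd1) and 11 changed sign (Ccnb1 5, Cdk1 5, Ccna2 1, none of them called). A change of filter, variance prior or block cannot move an estimate, so in these the direction was fixed in advance. For Mki67 the fit without a filter, counted among the 120, is itself the reference. The number of members called, 1 (1 higher, 0 lower), became 0 (0 higher) without a level filter and with median of ratios. It was 1 with quantile normalization, without the 100 most abundant genes and with the length trend removed, but then 0 were higher and 1 lower. Leaving out 1 sample gave 0 to 1 called and 0 to 1 higher. The 2556 genes called (2029 higher, 527 lower) became 928 higher and 821 lower after median-of-ratios scaling, 1563 (705 and 858) after quantile normalization, 1606 (576 and 1030) without the 100 most abundant genes and 1398 (746 higher) with the length trend removed. Leaving out 1 sample gave 552 to 3182 called, 459 to 2198 higher and 93 to 984 lower, in fits with fewer samples. For the remaining changes the cause was not tested.

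The log2 fold change of Ccnb1 (0.14) turned to -0.47 with a pseudocount of 0.1, -0.04 without the 100 most abundant genes, -0.13 with the length trend removed and -1.04 with limma voom, and ran from -0.47 to 0.71 with 1 sample left out. That of Cdk1 (0.12) turned to -0.02 with median of ratios, -0.11 without the 100 most abundant genes and -0.30 with the length trend removed, and ran from -0.14 to 0.31 with 1 sample left out. That of Ccna2 (0.28) ran from -0.03 to 0.43. The log2 ratio of Ccnb1 to Cdk1 ran from -2.67 to 1.27 with 1 sample left out. For Mki67 15 of the 16 alternatives, which combine the lack of a filter with another setting, were chosen after seeing the data. They ran from -0.22 (without siS100A16 replicate 3) to -1.85 (limma voom). With the replicate block the Pcna log2 fold change was 0.82 (limma adjusted p = 0.0433), 1 member was called, and the block changed no other member's call.

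At 9 to 26 reads for Cdk1 and 0 to 46 for Ccnb1 per library, depth and the spread between libraries limit what can be told of these genes, and differences within their 95% intervals were not detectable here.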
